A study of Homo sapiens with 9 samples.

Results

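DHRS2 and 8 relatives that carry the DHRS name (dehydrogenase/reductase) were examined in the HCT116 colorectal cancer cell line after knockdown of the long non-coding RNA LINC00857. The genes were picked by name, so DHRS1, DHRS2, DHRS3, DHRS4, DHRS7, DHRS9, DHRS11, DHRS12 and DHRS13 make up 9 of the 35817 genes in the count table. DHRS2 was picked because its counts were high with both siRNAs, so its difference from the controls is given as a description without a test. The other 8 genes were picked by name, but with earlier results of these data known. Further genes with a DHRS name, such as DHRS7B and DHRSX, are described apart from them.

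The series holds 9 RNA-seq libraries of HCT116 cells transfected by lipid reagent, 3 with siRNA1 against LINC00857, 3 with siRNA2 against LINC00857 and 3 with the siRNA labelled NC. No genotype, dose or time differs between the groups in the labels. All data come from 1 established cell line and a transient knockdown. The sources do not say whether replicates were grown separately. Each p-value therefore reflects only how far these libraries scatter, and that scatter may be technical. The library totals were 54097508 to 57815092 counts with siRNA1, 51411860 to 57156058 with siRNA2 and 54242901 to 55790505 with NC. LINC00857 averaged 212 ± 14.9 normalized counts with siRNA1, 200.2 ± 37.4 with siRNA2 and 482 ± 51.6 with NC (SD, n = 3 each). Of the epithelial markers, KRT8 lay between 1732 and 2035 CPM (counts scaled to library size) and EPCAM between 106.6 and 197.4 CPM in every library, while VIL1 and CDH17 did not exceed 0.234 and 0.598 CPM. CDH1 spanned 21.0 to 65.96 CPM, higher with siRNA1 than with NC (log2 fold change 0.25, edgeR adjusted p = 0.0196) and lower with siRNA2 (-1.17, adjusted p = 1.06e-07). The summed CPM of 5 fibroblast markers was 57.8 to 64.2 with siRNA1, 27.2 to 30.2 with siRNA2 and 34.1 to 41.8 with NC. COL1A1 carried that sum, the other 4 (COL1A2, COL3A1, PDGFRB and DCN) did not exceed 0.661 CPM, and of the leukocyte markers CD68 lay between 4.005 and 11.03 CPM while PTPRC did not exceed 0.0737 CPM. The part of these markers in the values below was not tested.

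The DHRS genes belong to the short-chain dehydrogenases/reductases, a large enzyme family that moves hydride between NAD(H) or NADP(H) and alcohol or carbonyl groups of retinoids, steroids, lipids and xenobiotics. The members share the nucleotide-binding fold rather than a single substrate, so the same name covers enzymes of different compartments and pathways. DHRS2, first described as Hep27 in growth-arrested hepatoma cells, reduces dicarbonyl compounds, and its processed form has been reported to bind MDM2.

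DHRS2 and DHRS4 lie on the same chromosome arm and the same strand, and the sequences around their annotated starts are shown because these neighbouring relatives behaved differently in the counts. DHRS2 (ENSG00000100867) spans positions 23630115 to 23645639 of chromosome 14 on the plus strand in GRCh38, and DHRS4 (ENSG00000157326) spans 23953586 to 23969279. Each window runs from 250 bases before to 50 bases after the RefSeq start, at chr14:23629865-23630164 for DHRS2 and chr14:23953520-23953819 for DHRS4 (GRCh38.p14, plus strand, 5′ to 3′). Capitals mark TATAAA in DHRS2 and GGGCGG or its complement CCGCCC in DHRS4.
DHRS2: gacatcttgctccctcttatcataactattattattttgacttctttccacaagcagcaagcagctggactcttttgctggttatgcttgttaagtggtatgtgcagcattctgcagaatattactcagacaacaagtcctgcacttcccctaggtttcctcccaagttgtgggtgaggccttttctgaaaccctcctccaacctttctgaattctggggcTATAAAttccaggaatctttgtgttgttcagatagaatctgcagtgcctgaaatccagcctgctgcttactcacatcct
DHRS4: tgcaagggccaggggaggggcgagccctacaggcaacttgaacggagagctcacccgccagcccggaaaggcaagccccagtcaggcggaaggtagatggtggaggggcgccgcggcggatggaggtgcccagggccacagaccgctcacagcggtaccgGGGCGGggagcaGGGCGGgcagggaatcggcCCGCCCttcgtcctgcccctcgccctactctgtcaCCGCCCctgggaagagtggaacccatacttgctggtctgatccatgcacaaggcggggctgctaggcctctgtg
The DHRS2 window held 0 CG dinucleotides and 44% G or C bases, whereas the DHRS4 window held 20 CG dinucleotides and 68.7% G or C bases. The single TATAAA of DHRS2 started 29 bases before the annotated start on the coding strand, and 11.5% of 35114 promoters of this length held TATAAA on either strand. GGGCGG, the GC box, occurred 4 times in the DHRS4 window and not in that of DHRS2, and was present in 45% of all promoters. The median promoter held 14 CG dinucleotides, and 3.96% held as few as DHRS2. CCAAT (34.6% of promoters), TGANTCA (7.71%) and AACNG (77.2%) were also searched on both strands and had no match in the DHRS2 window. In the DHRS4 window AACNG had 1 match and the other 2 words had none.

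Of the 9 genes, 8 (all but DHRS7) were matched in the RefSeq promoter table. DHRS1, DHRS11, DHRS12 and DHRS13 held 27 to 40 CG dinucleotides in each of their windows and no TATAAA. The 3 windows of DHRS3 ranged from 5 to 31 CG dinucleotides and also lacked TATAAA. The 4 windows of DHRS9, a gene on chromosome 2, held 0 to 4 CG dinucleotides, and 3 of them held TATAAA on either strand. By this count DHRS2 and DHRS9 had the CG-poor windows of the family. These matches describe letters only, and the starts used in HCT116 cells were not measured.

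DHRS2 was the only one of the 9 genes with a several-fold difference from NC in both siRNA groups, which is the property it was picked for. Values per library are counts divided by the effective library size after trimmed-mean (TMM) scaling, and are called normalized counts. DHRS2 had 1526, 1463 and 1668 normalized counts with siRNA1, 1340, 1375 and 1441 with siRNA2, and 268.1, 204.4 and 261 with NC. All 6 knockdown libraries lay above all 3 NC libraries, and the 3 siRNA1 libraries also lay above the 3 siRNA2 libraries. The means were 1552 ± 105 with siRNA1 and 1385 ± 51.2 with siRNA2, against 245 ± 34.9 with NC (SD, n = 3 each). These means correspond to fitted levels 6.34-fold higher with siRNA1 and 5.66-fold higher with siRNA2 than with NC, or log2 fold changes of 2.67 and 2.50. Both siRNA groups share the same NC libraries. Among the 15091 genes with a mean of at least 50 normalized counts, DHRS2 ranked 10th by log2 fold change with siRNA1 and 13th with siRNA2. Among all 21130 genes tested it ranked 135th and 147th. The minimum was a mean over all 9 libraries, so genes high only in a knockdown group could pass it. These ranks describe the values DHRS2 was picked for.

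The difference between the siRNAs was not used to pick DHRS2 and could be tested. DHRS2 was 0.16 higher on the log2 scale with siRNA1 than with siRNA2 (95% interval -0.06 to 0.38, edgeR adjusted p = 0.272). The groups did not overlap, yet the difference was not larger than the test required, and the interval still allows a difference of up to 0.38. With 3 libraries against 3, the smallest two-sided exact permutation p is 0.1, so tests here come from a model fitted over 21130 genes.

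**Figure D1:**
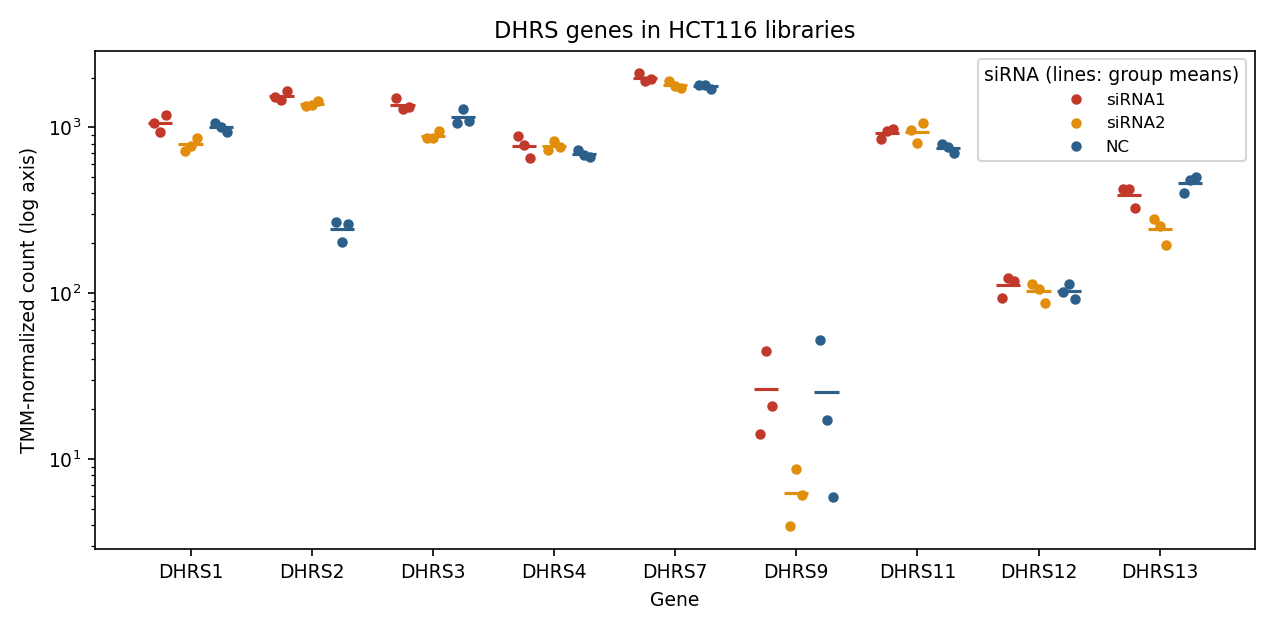
TMM-normalized counts (log axis) of the 9 DHRS genes in every library, with siRNA1, siRNA2 and NC side by side and a line at each group mean. DHRS2 shows 1340 to 1668 normalized counts in the 6 knockdown libraries and 204.4 to 268.1 in the NC libraries, while the other genes stay within much narrower gaps between groups or, for DHRS9, at low counts.

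Dividing counts by the length of the longest coding transcript and scaling each library to the same total gave levels per length, which allow genes to be compared with each other. On this scale DHRS2 had a level of 37.0 ± 2.66 with siRNA1 and 31.4 ± 1.08 with siRNA2, against 5.62 ± 0.822 with NC (SD, n = 3 each). DHRS2 thus ranked 1st of the 9 genes with siRNA1 and with siRNA2, and 7th with NC. DHRS7, the neighbour in that order, had a level of 34.9 ± 1.54 with siRNA1 and 30.03 ± 1.70 with siRNA2. The spreads (mean ± SD) of DHRS7 and DHRS2 overlapped in both groups. With NC, the order began with DHRS7 (29.8 ± 0.928), DHRS1 (26.6 ± 1.59) and DHRS3 (26.2 ± 2.76). The spread of DHRS3 overlapped with that of DHRS1 and narrowly with that of DHRS7. DHRS4 (18.7 ± 0.871) and DHRS11 (18.5 ± 1.05) followed with overlapping levels per length, then DHRS13 (8.89 ± 1.03), DHRS2, DHRS12 (2.04 ± 0.209) and DHRS9 (0.346 ± 0.333). The ranking depends on the length used, since the annotated exons of DHRS2 cover 7556 bases in all and its longest coding transcript 1705 bases. With the union of exons as length DHRS2 ranked 5th with siRNA1, 4th with siRNA2 and 7th with NC.

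As a share of the summed level per length of the 9 genes, DHRS2 made up 18.6%, 19.1% and 20.8% in the siRNA1 libraries, 20.1%, 20.9% and 20.8% in the siRNA2 libraries, and 4.44%, 3.35% and 4.57% in the NC libraries. The sum of the other 8 genes was 156.9, 148.4 and 152.3 with siRNA1, 121.1, 118.2 and 123.9 with siRNA2, and 132.5, 134.7 and 125.8 with NC. The sum without DHRS2 was therefore highest in the siRNA1 libraries and lowest in the siRNA2 libraries, and DHRS2 held about the same share in both. The size of the share depends on the length used. By the union of exons, DHRS2 made up 8.87% to 10.43% with siRNA1, 9.74% to 10.45% with siRNA2 and 1.47% to 2.01% with NC. In bulk RNA, more cells with a transcript and more transcript per cell cannot be told apart.

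None of the 8 relatives passed the threshold of adjusted p = 0.05 with siRNA1 by edgeR, where 21.3% of all genes tested did (10.8% higher and 10.5% lower). At an unadjusted p under 0.05 there were 3, namely DHRS3, DHRS7 and DHRS11, beside 31.4% of all genes, and DESeq2 and limma-voom each called 0. With siRNA2, 1 relative rose (DHRS11) and 3 fell (DHRS1, DHRS3 and DHRS13), against a background of 13.8% of genes higher and 13.9% lower. Between the siRNAs, DHRS1, DHRS3 and DHRS13 were higher with siRNA1 than with siRNA2 and no member was lower, beside 15.1% and 14.3% of all genes. The median log2 fold change of the 8 relatives was 0.15 with siRNA1 and -0.17 with siRNA2, and that of all genes 0.01 and 0.0045. All 9 genes passed the filter on low counts.

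The separation of the libraries gave a second description. With siRNA1, the libraries of DHRS7 and DHRS11 did not overlap with NC, as for 36.2% of all genes. With siRNA2, those of DHRS1, DHRS3, DHRS4, DHRS11 and DHRS13 did not overlap with NC, as for 41.7% of all genes. The libraries of DHRS2 were also apart from NC with both siRNAs, but DHRS2 was picked for that difference and is not counted here. Between the siRNAs, 5 members (DHRS1, DHRS2, DHRS3, DHRS9 and DHRS13) did not overlap, beside 41.8% of all genes.

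**Figure D2:**
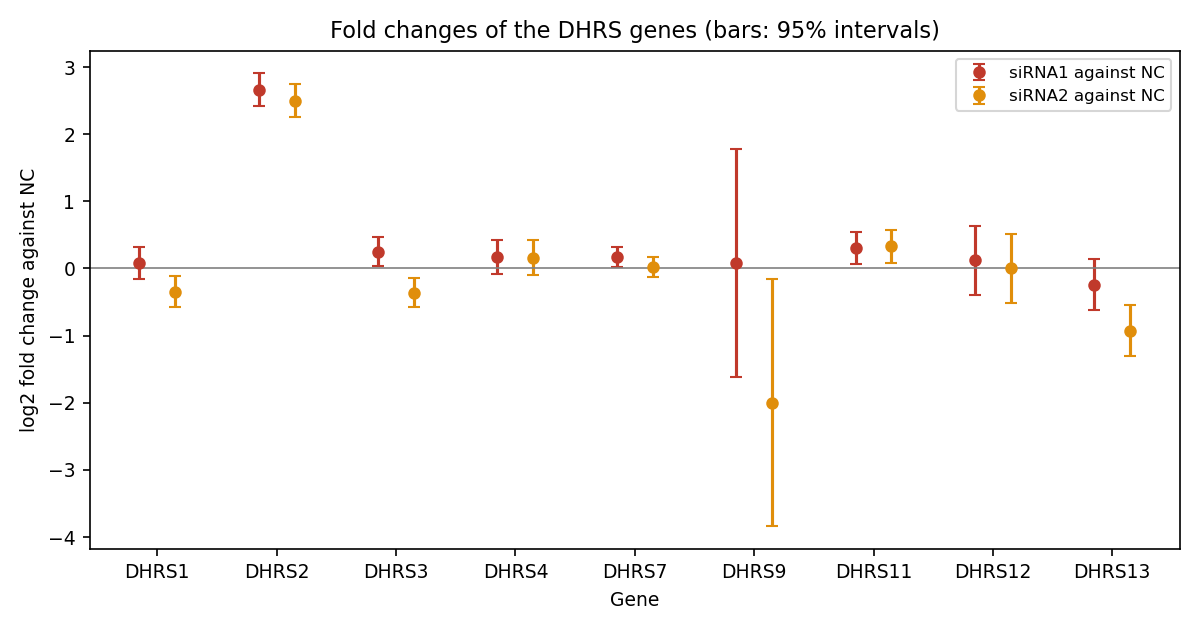
Log2 fold changes of the 9 DHRS genes with siRNA1 and with siRNA2 against NC, with 95% intervals from the fit over all genes. The intervals drawn for DHRS2 are a description and not a test, since DHRS2 was picked for its difference from NC. DHRS2 stands at 2.67 and 2.50, whereas DHRS13 with siRNA2 (-0.93) is the lowest of the genes with narrow intervals and the bars of DHRS9 are wide.

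DHRS3, DHRS4 and DHRS9 act on retinoids. DHRS3 (ENSG00000162496, chromosome 1), also called retSDR1, reduces all-trans-retinal to retinol and limits retinoic acid formation. DHRS3 had 1496, 1284 and 1329 normalized counts with siRNA1, 864.6, 867.6 and 951 with siRNA2, and 1064, 1296 and 1092 with NC. The siRNA2 libraries lay below all others, and 1 of the 3 siRNA1 libraries lay inside the NC range. DHRS3 fell with siRNA2 (log2 fold change -0.36 ± 0.10 SE, edgeR adjusted p = 0.0143), while with siRNA1 the log2 fold change was 0.25 ± 0.10 (adjusted p = 0.0921). The siRNAs differed by 0.61 ± 0.10 in DHRS3 (adjusted p = 0.000352). The call with siRNA2 was lost without siRNA2 replicate 1 (adjusted p = 0.0545), siRNA2 replicate 2 (0.0509) or NC replicate 2 (0.0758), and without NC replicate 2 DHRS3 passed with siRNA1 (log2 fold change 0.33, adjusted p = 0.0413).

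DHRS4 encodes a peroxisomal NADPH-dependent reductase of retinal and other carbonyls. DHRS4 had 892.1, 786.1 and 656.2 normalized counts with siRNA1, 732.5, 827.2 and 760.6 with siRNA2, and 726.9, 679.4 and 665.3 with NC. The siRNA2 libraries lay above the NC libraries by a small margin, and the siRNA1 libraries spanned the NC range. The log2 fold changes of DHRS4 were 0.17 with siRNA1 (95% interval -0.08 to 0.43, edgeR adjusted p = 0.374) and 0.16 with siRNA2 (-0.09 to 0.42, adjusted p = 0.368). Its counts are uncertain, since 48% of its 50-base words also occur in other genes (35.4% in DHRS4L2, a near-identical copy), and DHRS4-AS1 covers 14.4% of its exon bases on the opposite strand. The sources at hand do not say how the counting treated such reads or strand.

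DHRS9 (ENSG00000073737, chromosome 2) oxidises retinol and 3-alpha-hydroxysteroids. DHRS9 had 14.1, 44.9 and 21.0 normalized counts with siRNA1, 3.94, 8.73 and 6.11 with siRNA2, and 52.6, 17.3 and 5.93 with NC. The siRNA2 libraries were low, but the NC libraries reached into the same range and differed strongly among themselves. The log2 fold change of DHRS9 with siRNA2 was -1.998 with a 95% interval of -3.84 to -0.16 (edgeR adjusted p = 0.105), and with siRNA1 0.08 with an interval of -1.62 to 1.78 (adjusted p = 0.967). Without NC replicate 3 the siRNA2 value passed the threshold (log2 fold change -2.46, adjusted p = 0.0424).

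DHRS1, DHRS7 and DHRS11 encode reductases with steroid or carbonyl substrates. DHRS11 (ENSG00000278535, chromosome 17) is a cytosolic 3-keto- and 17-ketosteroid reductase. DHRS11 had 853.4, 953.9 and 983.3 normalized counts with siRNA1, 967.2, 806.5 and 1062 with siRNA2, and 794.4, 759.8 and 705.8 with NC. Every knockdown library lay above every NC library. The log2 fold change of DHRS11 was 0.30 ± 0.11 SE with siRNA1 (edgeR adjusted p = 0.0774) and 0.33 ± 0.11 with siRNA2 (adjusted p = 0.0465), and the siRNAs differed by -0.02 (adjusted p = 0.914). The call with siRNA2 was lost under 10 alternatives, among them the removal of siRNA1 replicate 2 (adjusted p = 0.0611), siRNA1 replicate 3 (0.0537), siRNA2 replicate 1 (0.113), siRNA2 replicate 3 (0.187), NC replicate 1 (0.0646), NC replicate 2 (0.0976) or NC replicate 3 (0.144).

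DHRS7 (ENSG00000100612, chromosome 14) is an endoplasmic reticulum enzyme. By the longest coding transcript, its level per length was about that of DHRS2 after knockdown. By the union of exons, DHRS7 was higher, at 31.7 to 35.2 with siRNA1 and 27.2 to 30.5 with siRNA2. DHRS2 then had 10.4 to 11.9 and 9.18 to 9.76. DHRS7 had 2119, 1911 and 1960 normalized counts with siRNA1, 1914, 1773 and 1724 with siRNA2, and 1807, 1803 and 1699 with NC. The siRNA1 libraries lay above the NC libraries and the siRNA2 libraries overlapped with them. Its log2 fold changes were 0.17 with siRNA1 (95% interval 0.03 to 0.32, edgeR adjusted p = 0.0965) and 0.03 with siRNA2 (-0.12 to 0.18, adjusted p = 0.831). Exons of PCNX4 on the opposite strand cover 27.5% of the exon bases of DHRS7.

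DHRS1 (ENSG00000157379) lies on chromosome 14 as well, on the minus strand. DHRS1 had 1057, 939.2 and 1194 normalized counts with siRNA1, 725.6, 777 and 869.5 with siRNA2, and 1064, 1008 and 940.1 with NC. The siRNA2 libraries lay below all others and the siRNA1 libraries spanned the NC range. DHRS1 fell with siRNA2 (log2 fold change -0.34 ± 0.11 SE, edgeR adjusted p = 0.0315), with siRNA1 the log2 fold change was 0.08 (adjusted p = 0.683), and the siRNAs differed by 0.43 ± 0.11 (adjusted p = 0.0091). The call with siRNA2 was lost without siRNA2 replicate 1 (adjusted p = 0.12), siRNA2 replicate 2 (0.0825), NC replicate 1 (0.112) or NC replicate 2 (0.0777). It was also lost with no filter on low counts (0.0574). The difference between the siRNAs was lost without siRNA1 replicate 3 (0.0533) or siRNA2 replicate 1 (0.0504).

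DHRS12 and DHRS13 are less well characterised members of the family. DHRS13 (ENSG00000167536, chromosome 17) had 424.3, 424.3 and 327.1 normalized counts with siRNA1, 281, 254.3 and 194.5 with siRNA2, and 402.2, 483.1 and 503.2 with NC. The siRNA2 libraries lay below all others, and the siRNA1 libraries overlapped with NC. DHRS13 was 1.90-fold lower with siRNA2 than with NC (log2 fold change -0.93 ± 0.18 SE, edgeR adjusted p = 0.00145), with siRNA1 the log2 fold change was -0.24 ± 0.17 (adjusted p = 0.404), and the siRNAs differed by 0.69 ± 0.18 (adjusted p = 0.00959). The call of DHRS13 with siRNA2 held under every alternative tried, with adjusted p between 1.01e-05 and 0.00846. An antisense gene, AC024267.6, covers 41.5% of its exon bases, so its counts cannot be separated from antisense reads without strand.

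DHRS12 (ENSG00000102796, chromosome 13) had 93.4, 124 and 118 normalized counts with siRNA1, 114, 107 and 87.6 with siRNA2, and 102, 114 and 91.9 with NC. All 3 groups overlapped. Its log2 fold change was 0.12 with siRNA1 (95% interval -0.39 to 0.63, edgeR adjusted p = 0.8) and 0.004 with siRNA2 (adjusted p = 0.994). Exons of AL162377.1 on the opposite strand and AL162377.3 on the same strand cover 21.4% of the exon bases of DHRS12.

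Other genes that carry or once carried a DHRS name were measured in the same way. Of 9 listed, 8 had a row and were tested. With siRNA1, 3 rose and none fell, beside 10.8% and 10.5% of all genes. With siRNA2, 1 rose and 1 fell, beside 13.8% and 13.9%. HSD17B11, formerly DHRS8, a lipid droplet dehydrogenase, averaged 2110 ± 37.3 normalized counts with siRNA1 and 2015 ± 233 with siRNA2, against 1666 ± 44.7 with NC, and rose with both (log2 fold changes 0.34 and 0.27, edgeR adjusted p = 0.00751 and 0.0195). BDH2, formerly DHRS6, a cytosolic dehydrogenase, rose with siRNA1 by 0.46 (adjusted p = 0.0464), while the siRNA2 value was 0.12 (adjusted p = 0.629). DHRS7B, a peroxisomal enzyme of ether lipid synthesis, rose with siRNA1 by 0.44 (adjusted p = 0.0249), while the siRNA2 value was 0.01 (adjusted p = 0.956). DHRSX fell with siRNA2 (-0.59, adjusted p = 0.0477). The call of HSD17B11 with siRNA2 was lost without siRNA2 replicate 1 (adjusted p = 0.0506), siRNA2 replicate 3 (0.0929) or NC replicate 1 (0.0681). That of DHRS7B was lost without siRNA1 replicate 1 (0.0776), siRNA1 replicate 2 (0.0948), NC replicate 2 (0.0846) or NC replicate 3 (0.102). Leaving out any single library ended the call of BDH2 (0.0545 to 0.208), and that of DHRSX ended without siRNA1 replicate 1 or 2, any siRNA2 library, or NC replicate 1 or 3 (0.054 to 0.215). BDH2 also lost its call with no filter (0.0879) and with only the compared groups (0.0668). DHRSX lost it with limma-voom (0.0628), upper-quartile scaling (0.0519) and no filter (0.0904). The copies of DHRS4 did not pass the test. DHRS4L2 had log2 fold changes of 0.09 with siRNA1 (adjusted p = 0.719) and -0.10 with siRNA2 (0.668), and DHRS4-AS1 had -0.02 and 0.0007. HSD17B14, formerly DHRS10, had -0.51 and -0.18 (adjusted p = 0.212 and 0.694). DHRS4L1, a pseudogene, had 0 to 35 counts per library.

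DHRS2 has partners and regulators that these libraries also measured, and the transcription factor MYB was the only one of 7 that rose with both siRNAs. Of these 7, 2 rose and 2 fell with siRNA1, beside 10.8% and 10.5% of all genes. The siRNA2 comparison had 3 higher and 0 lower, beside 13.8% and 13.9%. MYB has been reported to activate DHRS2 in breast cancer cells. MYB had 316.8, 264.3 and 294.1 normalized counts with siRNA1, 240.6, 244.5 and 268.8 with siRNA2, and 176.8, 96.6 and 124.6 with NC. Every knockdown library lay above every NC library. The log2 fold change of MYB was 1.14 ± 0.22 SE with siRNA1 (edgeR adjusted p = 0.00218) and 0.92 ± 0.22 with siRNA2 (adjusted p = 0.00625), and the siRNAs differed by 0.22 (adjusted p = 0.524). The AACNG word that MYB binds had no match in the 300-base window of DHRS2 shown above, and whether MYB had a part in the counts of DHRS2 was not tested.

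MDM2 and HDAC1 passed with siRNA1, CDKN1A with siRNA2 and HDAC3 with both, in opposite directions. MDM2, a ubiquitin ligase, fell with siRNA1 (-0.25 ± 0.04 SE, edgeR adjusted p = 0.000295). The siRNA2 value of MDM2 was -0.09 (adjusted p = 0.0871), and it passed without siRNA1 replicate 1 (0.041) or siRNA2 replicate 3 (0.0456), with DESeq2 (0.0357), with the replicate block (0.049) and with only the compared groups (0.0455). CDKN1A, which blocks the cell cycle, rose with siRNA2 (0.62 ± 0.04, adjusted p = 3.06e-07). Its siRNA1 value was -0.03 (adjusted p = 0.746), and it was -0.09 without siRNA1 replicate 1 (adjusted p = 0.0291). Of the histone deacetylases, whose inhibitors are known to raise DHRS2, HDAC1 rose with siRNA1 (0.14, adjusted p = 0.00815) and HDAC2 had -0.09 and 0.002. HDAC3 moved both ways, at -0.19 with the first siRNA (adjusted p = 0.0138) and 0.30 with the second (adjusted p = 0.000503). The calls of HDAC1 and HDAC3 with siRNA1 were lost without NC replicate 3 (adjusted p = 0.0517) and without NC replicate 2 (0.0544).

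Retinoid handling genes moved in both directions. Of 30 listed, 23 were tested, and 3 rose and 2 fell with siRNA1, while 6 rose and 7 fell with siRNA2. In either direction, 21.3% of all genes passed with siRNA1 and 27.7% with siRNA2. CRABP2, which carries retinoic acid to the nucleus, differed in sign, at 0.34 with siRNA1 (edgeR adjusted p = 0.00266) but -1.14 with siRNA2 (adjusted p = 8.33e-08). ALDH1A3, which makes retinoic acid from retinal, likewise had 0.35 with siRNA1 (adjusted p = 9.38e-06) but -0.14 with siRNA2 (adjusted p = 0.00659). RXRB, a retinoid X receptor, rose with both (0.28 and 0.39, adjusted p = 0.00237 and 0.000121). DGAT1, which can esterify retinol, fell with siRNA2 (-0.44, adjusted p = 4.11e-05), and its siRNA1 value was -0.03 (adjusted p = 0.746). The median of the list was 0.12 with siRNA1 and -0.02 with siRNA2.

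Among 13 tested genes of steroid-related short-chain dehydrogenases, 2 rose and 2 fell with siRNA1, and 1 rose and 4 fell with siRNA2, with medians of -0.03 and -0.06. The shares of all genes called in either direction were again 21.3% and 27.7%. HSDL2, a peroxisomal relative, rose with both siRNAs, at 3401 ± 178 and 3509 ± 253 normalized counts against 2182 ± 35.2 with NC (log2 fold changes 0.64 and 0.69). HSDL1, a relative of mitochondria, fell with both (-0.49 and -0.77). HSD17B7, which acts in cholesterol and oestradiol synthesis, fell by 0.66 with siRNA1 (edgeR adjusted p = 0.000326). With siRNA2 HSD17B7 had -0.29 (adjusted p = 0.0438), a call lost under 10 alternatives, among them without siRNA1 replicate 2 or 3, siRNA2 replicate 2 or 3, or any 1 NC library (adjusted p = 0.0521 to 0.162). HSD17B13, a lipid droplet enzyme, fell with siRNA2 (-1.56, adjusted p = 0.0135), had -0.13 with siRNA1, and lost its call without NC replicate 1 (adjusted p = 0.0573). Among 27 tested further short-chain dehydrogenases, 3 rose and 5 fell with siRNA1 and 6 rose and 3 fell with siRNA2, with medians of -0.09 and 0.02. KDSR, of sphingolipid synthesis, had -0.46 with siRNA1 (adjusted p = 0.000106) but 0.28 with siRNA2 (adjusted p = 0.003). UXS1, of sugar nucleotide metabolism, fell with siRNA1 (-0.55, adjusted p = 9.18e-06) and its siRNA2 value was 0.11. CBR4, of mitochondrial fatty acid synthesis, rose with siRNA2 (0.46, adjusted p = 0.000547), and NDUFA9, a subunit of respiratory complex I, fell with siRNA2 (-0.26, adjusted p = 0.00347).

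No tested gene within 500 kb of DHRS2 had a log2 fold change as high as its own, but DHRS2 was picked for that value. Few genes anywhere reached it, since DHRS2 ranked 135th with siRNA1 and 147th with siRNA2 of 21130 genes tested. Of 38 genes in this window of the count table, 28 were tested. With siRNA1, 1 rose and 4 fell, beside 10.8% and 10.5% of all genes. With siRNA2, 4 rose and 7 fell, beside 13.8% and 13.9%. The highest values in the window were those of AL135999.2 with siRNA1 (0.72 ± 0.93 SE) and of DHRS4L1 with siRNA2 (1.42 ± 1.61), both at low counts. AL135999.1, a separate gene, had -0.09 with siRNA1. The nearest protein-coding gene, JPH4, 51315 bases before DHRS2, had 0 to 8 counts per library and was below the filter. AP1G2, an adaptor complex subunit 62045 bases before DHRS2, had log2 fold changes of -0.02 with siRNA1 (edgeR adjusted p = 0.904) and -0.10 with siRNA2 (0.304). Slightly farther on that side, THTPA at 69844 bases (0.89, adjusted p = 0.00557), ZFHX2-AS1 at 69337 bases (0.76, 0.0192) and ZFHX2 at 73923 bases (0.88, 0.0066) rose with siRNA2. These 3 overlap each other, were named after their values were seen, and had -0.45, 0.23 and 0.33 with siRNA1, none past the threshold. On the other side DHRS4 began 307947 bases and DHRS4L2 324235 bases after DHRS2, with the values given above.

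**Figure D3:**
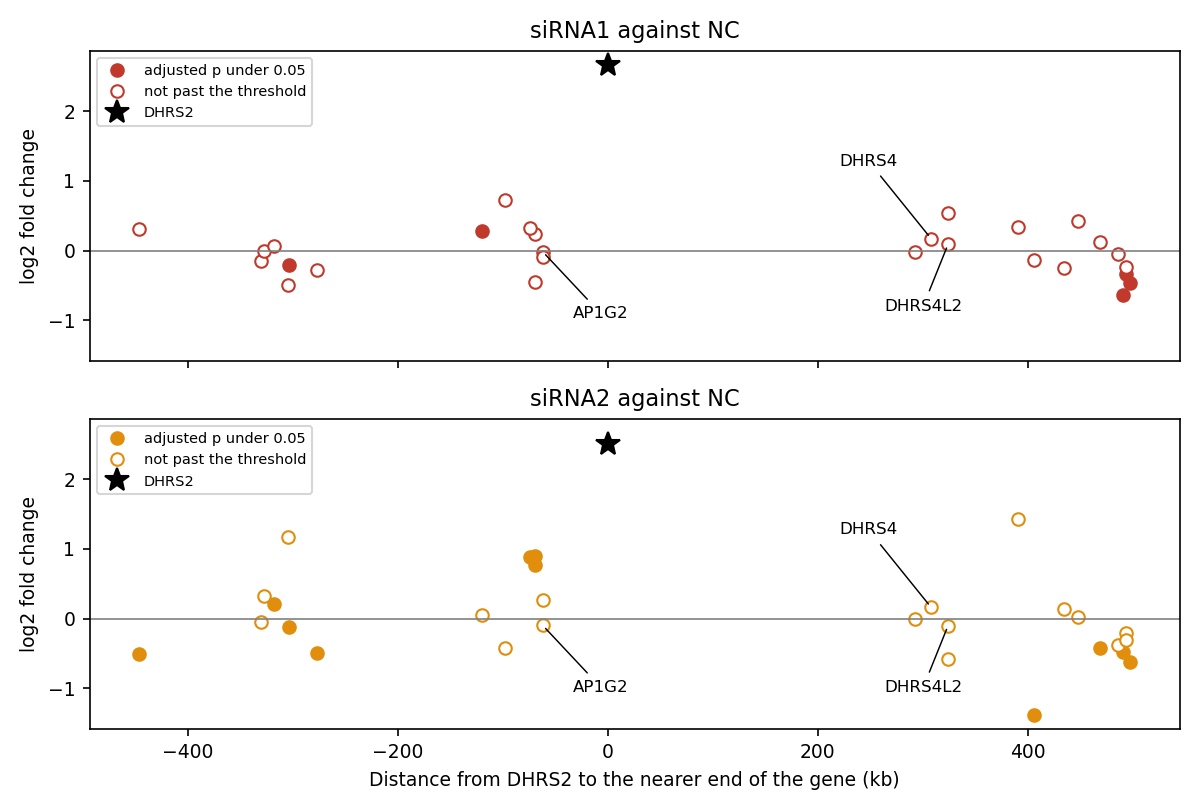
Log2 fold changes of tested genes within 500 kb of DHRS2 by distance (kb, negative before DHRS2), with siRNA1 in the upper panel and siRNA2 in the lower, and filled points past adjusted p of 0.05. DHRS2, drawn as a star, stands at 2.67 and 2.50, and AP1G2, DHRS4 and DHRS4L2 lie between -0.10 and 0.17.

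The genes most like DHRS2 in their pattern came from outside the family. Likeness was the root mean square difference from DHRS2 of log2 CPM over the 9 libraries, each gene centred on its NC mean, among 15090 genes with a mean of at least 50 normalized counts. FLG (filaggrin of the epidermis) had the smallest difference, 0.49, followed by HRNR (hornerin) at 0.62, PMEPA1 (a membrane protein of TGF-beta signalling) at 0.62, AL606500, a gene without a further name in the table, at 0.72, COL5A3 (a fibrillar collagen chain) at 0.73 and COL17A1 (a hemidesmosome collagen) at 0.76. These genes were picked by this likeness, so their values are a description. The minimum count was a mean over all 9 libraries, which some genes reached only through the knockdown groups. With NC alone, FLG averaged 49.4 normalized counts, PMEPA1 38.05, AL606500 32.95 and COL5A3 41.7. FLG averaged 209 ± 22.6 normalized counts with siRNA1 and 264 ± 39.6 with siRNA2, against 49.4 ± 21.8 with NC (SD, n = 3 each). HRNR had log2 fold changes of 2.26 with siRNA1 and 3.37 with siRNA2, and PMEPA1 had 2.35 and 1.67. Of the family itself, DHRS11 came nearest at rank 1665 (difference 1.86), DHRS13 was farthest at rank 14472 (2.61), and DHRS9 was under the minimum count.

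**Figure D4:**
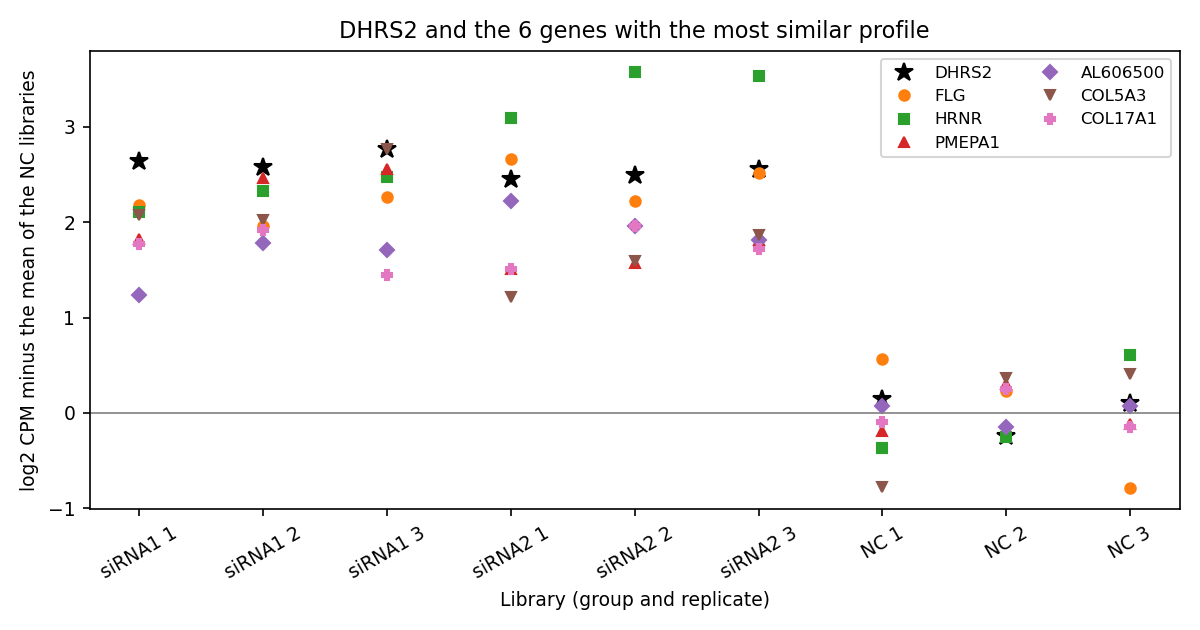
Log2 CPM minus the NC mean in each library for DHRS2 (stars) and the 6 genes with the smallest root mean square difference from it. All 7 genes lie above 1 in the 6 knockdown libraries and below 1 in the NC libraries, and HRNR exceeds DHRS2 in the siRNA2 libraries.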

How the data were processed

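Gene-level read counts of 9 HCT116 libraries (3 groups of 3), as deposited by the authors, were used as raw whole-number counts. Per the submitters' processing notes they were made on hg19. Aligner and counter: not given in the sources used here. Positions, lengths and exon overlaps came from GENCODE release 29 (GRCh38), joined by gene ID (34766 of 35817 genes matched), and promoters from RefSeq (GRCh38.p14). Columns of the count table were the only measurements used.

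Counts were filtered (filterByExpr, minimum count 10, minimum total 15), TMM-scaled and tested by quasi-likelihood F tests (edgeR 4.0.16, R 4.3.3). The model held 3 group means, 9 libraries and 6 residual degrees of freedom, with Benjamini-Hochberg adjustment over 21130 genes and a threshold of 0.05. Each standard error is the absolute log2 fold change over the root of F. Log2 CPM used a prior count of 2. Alternatives were DESeq2 1.42.0, limma-voom (limma 3.58.1, the package the study names), median-of-ratios and upper-quartile scaling, no filter, the compared groups only, a replicate block and the removal of each library.

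The members and all gene lists were chosen with earlier results of these data known. Named genes were the members, all genes of the lists of other DHRS names and of partners, the 3 genes called most strongly in each other list for either siRNA, the nearest protein-coding neighbours, and the 6 genes nearest to DHRS2 in pattern. Values of some listed genes are not reported here. A chi-square comparison of counts found no duplicate libraries.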

Additional observations from a re-analysis of the deposited data

Results flagged for a closer look

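Each gene named here had an adjusted p under 0.05 in the edgeR test of siRNA1 against siRNA2, which compares the 2 knockdowns directly. Of all genes tested, 29.4% passed it. Genes of the retinoid, steroid-related and other dehydrogenase lists were named by their adjusted p against NC in the same libraries. That choice favours a difference between the siRNAs. Values are log2 differences, siRNA1 minus siRNA2. Groups of 3 libraries were too small for a check of single outlying libraries.

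Of the DHRS members, DHRS13 differed by 0.69 (adjusted p = 0.00959), DHRS3 by 0.61 (0.000352) and DHRS1 by 0.43 (0.0091), and DHRS7B, a relative outside the 9, by 0.43 (0.0214). In all 4 the siRNA1 libraries had the higher mean. Of retinoid handling genes, CRABP2 differed by 1.48 (6.08e-09), ALDH1A3 by 0.49 (1.82e-07) and DGAT1 by 0.41 (7.14e-05), also higher with siRNA1.

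Of steroid-related relatives, HSD17B13 differed by 1.44 (0.0199), HSDL1 by 0.28 (0.000974) and HSD17B7 by -0.38 (0.0107). Of the other short-chain dehydrogenases, KDSR differed by -0.75 (8.27e-07), UXS1 by -0.66 (8.15e-07), CBR4 by -0.31 (0.00878) and NDUFA9 by 0.29 (0.00134). Of the partners, CDKN1A differed by -0.65 (1.48e-07), HDAC3 by -0.49 (6.69e-06), MDM2 by -0.16 (0.00477) and HDAC1 by 0.0943 (0.0467). HDAC1 lost this call without any single library (adjusted p = 0.0724 to 0.267), with no filter (0.0774) and with only the compared groups (0.0877). HSD17B13 lost it without siRNA1 replicate 2 (0.056), siRNA1 replicate 3 (0.0728) or siRNA2 replicate 2 (0.071), and with limma-voom (0.051). DHRS7B lost it without siRNA1 replicate 1 (0.0683), siRNA1 replicate 2 (0.082) or siRNA2 replicate 2 (0.1), and DHRS1 without siRNA1 replicate 3 (0.0533) or siRNA2 replicate 1 (0.0504).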

How the results depend on the processing

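No called result changed direction under any alternative. Among values of the 9 genes that were not called, 6 took both signs: DHRS1 (-0.02 to 0.15) and DHRS9 (-0.53 to 1.18) with siRNA1, DHRS7 (-0.02 to 0.06) and DHRS12 (-0.08 to 0.11) with siRNA2, and DHRS4 (-0.10 to 0.11) and DHRS11 (-0.13 to 0.06) between the siRNAs. DHRS2 kept log2 fold changes of 2.54 to 2.73 with siRNA1 and 2.39 to 2.57 with siRNA2 when single libraries were left out, and its difference between the siRNAs 0.0988 to 0.19. The lowest values against NC, 2.54 and 2.39, came without NC replicate 2, in which DHRS2 was lowest. The number of the 8 relatives called was 0 with siRNA1 (0 to 1 with single libraries left out, where the 1 is DHRS3 without NC replicate 2) and 4 with siRNA2 (1 to 4), and it was 2 with siRNA2 without the filter on low counts. Between the siRNAs 2 to 3 members were called. Over all lists the counts called with single libraries left out were 18 to 28 with siRNA1, 27 to 34 with siRNA2 and 25 to 32 between the siRNAs.

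Replicate numbers did not pair the libraries, since same-numbered libraries correlated at -0.0912 to 0.0626 in their deviations from the group means. With the replicate block, 0, 3 and 3 members were called with siRNA1, with siRNA2 and between the siRNAs, DHRS2 had 2.67, 2.51 and 0.16, and DHRS11 lost its call with siRNA2 (adjusted p = 0.0683). Another scaling moved the median of all genes to at most 0.03. Of the values of the 9 genes under the alternatives, 407 were unchanged, 20 lost their call and 2 gained one. The other 2 were the DHRS2 values against NC without NC replicate 2, which moved in size. For tested values, unchanged means on the same side of the threshold. DHRS2 against NC was not tested, so its values there were sorted by size and not by a call. Low counts limit DHRS9, and reads shared with copies or overlapping genes limit DHRS4, DHRS7, DHRS12 and DHRS13.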
